A study of Mus musculus with 24 samples.

Results

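The BCL2 family decides whether a cell opens its mitochondria and dies by apoptosis, and 10 of its core genes were read across MMTV-Wnt1 mouse mammary tumours treated with E7386. The members were taken by symbol: the guardians Bcl2, Bcl2l1 and Mcl1, the effectors Bax and Bak1, and the BH3-only genes Bcl2l11, Bbc3, Pmaip1, Bid and Bad. They are 10 of the 47729 genes in the table, each symbol stood there 1 time, and all 10 passed the filter that kept 15736 genes for testing (at least 1 TPM in at least 4 libraries). TPM is a relative transcript abundance corrected for length, so levels can be compared between genes.

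The treated groups were tumours given E7386 by mouth, 2 times daily, at 25 or 50 mg/kg, and they were set against tumours of mice given vehicle. E7386 is described as acting on the Wnt pathway at the contact between β-catenin and the coactivator CBP. All groups carried the same transplanted tumour type: mammary tumours that arose in mice carrying the transgene MMTV-Wnt1 (line B6SJL-Tg(Wnt1)1Hev/J), in which a viral promoter active in mammary epithelium drives the growth factor gene Wnt1, were diced and grown in C57BL/6J hosts. Dosing began at about 200 mm3 (day 1) and lasted 3 days in the groups called day 4 and 7 days in those called day 8. Each of the 6 groups had 4 libraries. The ages of the mice are not given, nor is the number of donor tumours, so the libraries of a group may share a donor. Nothing in the labels ties the libraries of a group to separate animals; the p-values therefore rest on the spread among these libraries alone, part of which may be technical. Between 14496 and 15127 genes reached 1 TPM in a library. Markers of the labelled tissue were present throughout, with Epcam at 367 to 514 TPM, Krt5 at 422 to 864 TPM, and the transgene product Wnt1 at 57.6 to 257 TPM.

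The family works as 3 classes that bind each other at the mitochondrial outer membrane. BAX and BAK form the pores that release cytochrome c, which lets the apoptosome activate caspases. The guardians BCL2, BCL-XL (from Bcl2l1) and MCL1 hold BAX, BAK and the BH3-only proteins in check. The BH3-only proteins carry stress signals: BIM (Bcl2l11) and PUMA (Bbc3) bind all guardians, NOXA (Pmaip1) mainly MCL1, and BAD mainly BCL2 and BCL-XL, while BID links death receptors to the mitochondria after cleavage. In the mammary gland, MCL1 and BCL-XL are known to keep epithelium alive, and BIM is known for clearing cells from the duct lumen. Much of this control acts on protein stability, cleavage and phosphorylation, which RNA levels do not show. In bulk tumour RNA, fewer cells of a type and less RNA per cell cannot be told apart.

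At 50 mg/kg, 2 of the 10 genes passed the test in a comparison with vehicle: Bcl2l11 rose on day 4, and Bcl2 fell when both days were averaged. Each was 1 of 10 members, against 9.26% of all tested genes on day 4 and 12.0% over both days, so both counts are near the background. The Bcl2l11 call ended in 7 of 16 alternative settings. A start region of each of these 2 genes is shown first because they carry the called differences. A start region of Bbc3, whose protein shares BIM's range of partners, is added. Bcl2l11 and Bbc3 have further windows, and for both only the window with a FOXO match is printed. The printed FOXO matches therefore do not stand for all windows of these genes. Each line gives 250 bases before to 50 after a RefSeq start site of the build GRCm38.p6, on the gene's strand, 5′ to 3′. Capitals mark matches to 1 of 5 motifs searched on both strands: the FOXO motif GTAAACA, the TCF/LEF motif CTTTGAT, the cyclic AMP response element half-site TGACG, the C/EBP-ATF composite TGATGNAA and the E-box CACGTG.
Bcl2l11, chr2:128125788-128126087, plus strand: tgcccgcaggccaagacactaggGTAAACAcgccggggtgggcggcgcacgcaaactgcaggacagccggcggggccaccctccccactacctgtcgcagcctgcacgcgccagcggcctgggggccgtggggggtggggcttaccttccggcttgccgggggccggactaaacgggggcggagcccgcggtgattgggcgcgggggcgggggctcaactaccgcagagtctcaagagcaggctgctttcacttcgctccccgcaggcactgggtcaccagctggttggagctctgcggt
Bbc3, chr7:16310011-16310310, plus strand: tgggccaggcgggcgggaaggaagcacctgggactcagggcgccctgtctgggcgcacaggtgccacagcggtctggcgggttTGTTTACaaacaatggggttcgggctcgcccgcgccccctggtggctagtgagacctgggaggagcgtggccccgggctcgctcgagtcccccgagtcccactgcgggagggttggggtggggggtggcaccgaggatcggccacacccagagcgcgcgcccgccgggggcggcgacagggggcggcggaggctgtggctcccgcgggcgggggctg
Bcl2, chr1:106714241-106714540, minus strand: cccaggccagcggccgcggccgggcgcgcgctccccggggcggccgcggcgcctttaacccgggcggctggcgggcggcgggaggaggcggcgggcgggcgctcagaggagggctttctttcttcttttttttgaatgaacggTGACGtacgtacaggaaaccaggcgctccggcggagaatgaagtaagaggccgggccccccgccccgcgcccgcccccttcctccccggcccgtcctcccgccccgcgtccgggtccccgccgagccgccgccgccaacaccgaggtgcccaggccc
The printed Bcl2l11 window held a FOXO match that began at position -227 relative to the start site. The printed Bbc3 window held 1 in reverse orientation at -167. The Bcl2 window held a half-site match at -107. Of all 32851 promoter windows of this length, 3.65% held the FOXO letters, 20.8% the half-site, 3.73% the TCF/LEF letters, 3.97% the composite and 7.15% the E-box. None of the 15 windows of the 9 members with an entry held the TCF/LEF or composite letters, and 7 held a match of some kind. The E-box lay in the Bax window, which had 2 matches, and in another Bbc3 window. The 2 remaining half-site matches were in the Mcl1 window and in the third Bbc3 window. The second Bcl2l11 window (chr2:128127325-128127624) had none. The printed windows are rich in G and C, at 71% for Bcl2l11, 74.7% for Bbc3 and 76% for Bcl2, against a median of 52.7% over all windows. The annotated genes extend over chr2:128126038-128162547 (Bcl2l11), chr7:16308393-16318205 (Bbc3) and chr1:106538178-106714274 (Bcl2). A match describes letters in a window and says nothing on binding in these tumours.

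Among the guardians, Mcl1 and Bcl2l1 were the abundant members and Bcl2 the scarce one. Mcl1 averaged 128 TPM and Bcl2l1 124 TPM over the 24 libraries, above 92.9% and 92.6% of the tested genes, while Bcl2 averaged 11.5 TPM. Of the summed guardian TPM, Mcl1 made up 48.8% ± 3.11, Bcl2l1 46.7% ± 3.46 and Bcl2 4.50% ± 1.19 (SD, n = 24 libraries). The effectors were close to each other, with Bax at 110 TPM and Bak1 at 100.4 TPM, or 52.2% and 47.8% of their sum. These sums hold the core members only. They leave out other family genes, such as the guardian Bcl2l2 (24.09 to 33.88 TPM) and the effector Bok (17.6 to 27.46 TPM). Among the BH3-only genes, Bcl2l11 led with 48.7 TPM, followed by Bid at 39.6, Bad at 35.9, Bbc3 at 23.2 and Pmaip1 at 7.92 TPM. Bak1 varied least over the 24 libraries, from 90.6 to 114 TPM, and Pmaip1 most, from 4.43 to 12.2 TPM, a 2.76-fold span.

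**Figure D1:**
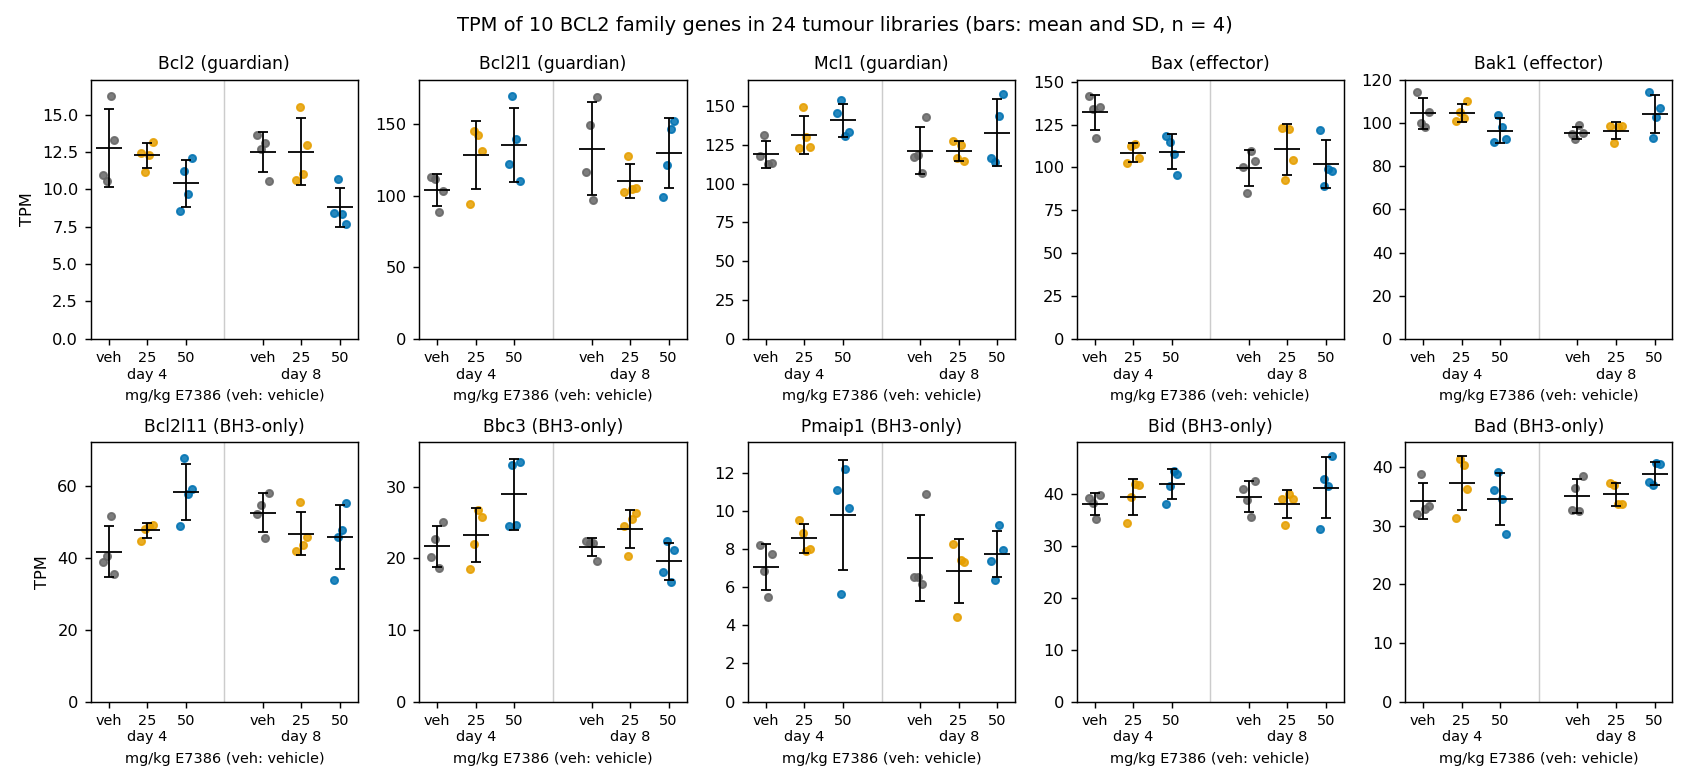
TPM (vertical axis, starting at 0) of each of the 10 genes in every library, by day and dose of E7386 (horizontal axis, veh for vehicle), with bars for the mean and SD of 4 libraries. Bcl2 is lowest at 50 mg/kg on day 8 (mean 8.79 TPM), Bcl2l11 is highest at 50 mg/kg on day 4 (58.2 TPM), and Bax is highest in day 4 vehicle (132 TPM).

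After 3 days at 50 mg/kg, 1 of the 10 members passed the test, Bcl2l11, which encodes BIM. The share of all tested genes that passed in this comparison was 9.26%, so 1 of 10 is near the background. On day 4, Bcl2l11 had 38.91, 40.47, 51.71 and 35.37 TPM at vehicle, 44.57, 47.97, 48.72 and 49.0 TPM at 25 mg/kg, and 48.7, 67.58, 57.57 and 59.14 TPM at 50 mg/kg. The group means therefore stood in the order of dose, and 3 of the 4 libraries at 50 mg/kg lay above every vehicle library, while the lowest overlapped with vehicle replicate 3. Bcl2l11 rose to 58.2 ± 7.74 TPM at 50 mg/kg, against 41.6 ± 7.06 TPM in vehicle (SD, n = 4 each), a difference of 0.48 on the log2(TPM + 1) scale (SE 0.13, adjusted p = 0.0272 by limma over all tested genes). This call ended in 7 of 16 alternatives, with adjusted p between 0.0141 and 0.0900. It ended when the fit held only the compared groups (0.0502), without vehicle replicate 1 (0.0708), 2 (0.0529) or 4 (0.0900), and without 50 mg/kg replicate 2 (0.0846), 3 (0.0645) or 4 (0.0518). The difference stayed between 0.41 and 0.59 in these settings.

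On day 8 Bcl2l11 did not pass. The gene had 52.05, 54.71, 45.44 and 57.99 TPM at vehicle, 41.86, 55.34, 43.46 and 45.88 TPM at 25 mg/kg, and 33.77, 45.69, 47.82 and 55.31 TPM at 50 mg/kg. The groups overlapped, and the lowest library was 50 mg/kg replicate 1. The difference of 50 mg/kg to vehicle was -0.21 (SE 0.13, adjusted p = 0.411). The change of the effect between the days was -0.69 (SE 0.19), which did not pass over all genes (adjusted p = 0.0654), and 1.44% of all tested genes passed in that comparison. It passed in 5 of 24 alternatives (adjusted p from 0.0233 to 0.167), and all 24 had the same sign. Vehicle tumours themselves had more Bcl2l11 on day 8 than on day 4 (0.34, SE 0.13), without passing (adjusted p = 0.417).

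Bbc3, which encodes PUMA, had the next smallest p among the members on day 4 but did not pass. On day 4 it had 20.25, 22.67, 18.7 and 25.16 TPM at vehicle, 18.49, 22.08, 26.72 and 25.73 TPM at 25 mg/kg, and 24.55, 33.04, 24.67 and 33.53 TPM at 50 mg/kg. Replicates 2 and 4 at 50 mg/kg stood above all other libraries of that day, and the other 2 lay within the vehicle range. The difference to vehicle was 0.39 (SE 0.13, adjusted p = 0.0582), and it passed in 4 of 16 alternatives (adjusted p from 0.0440 to 0.175). On day 8 Bbc3 had 22.47, 22.14, 22.13 and 19.69 TPM at vehicle, 24.48, 20.35, 25.54 and 26.3 TPM at 25 mg/kg, and 18.15, 22.38, 16.74 and 21.16 TPM at 50 mg/kg. Here the mean at 50 mg/kg was the lowest of the 6 groups, with a difference to vehicle of -0.14 and overlapping libraries. The change of the effect between the days was -0.53 (SE 0.18, adjusted p = 0.142).

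The 3 remaining BH3-only genes gave smaller or less even values. Pmaip1, which encodes NOXA, had 11.1, 5.62, 12.21 and 10.16 TPM at 50 mg/kg on day 4, against 8.22, 6.83, 5.5 and 7.72 TPM in vehicle. Replicate 2 at 50 mg/kg fell in the vehicle range while the other 3 stood above it, and the difference was 0.38 (SE 0.20, adjusted p = 0.239). Bid ranged from 33.2 to 47.2 TPM over all libraries, and its differences to vehicle at 50 mg/kg were 0.13 on day 4 and 0.05 on day 8. Bad ranged from 28.6 to 41.4 TPM, with a day 4 difference of 0.01 whose 95% interval ran from -0.18 to 0.20. Bid overlaps Bcl2l13 (mean 26.9 TPM) and Bad overlaps Gpr137 (21.3 TPM), each on the opposite strand. The libraries are strand-specific, but use of the strand in counting is not given in the sources used here, so the levels of Bid and Bad are uncertain.

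Bcl2, the founding guardian of the family, was the member that fell. On day 4 it had 10.97, 10.58, 16.23 and 13.29 TPM at vehicle, 12.44, 11.16, 12.31 and 13.15 TPM at 25 mg/kg, and 8.56, 11.21, 9.68 and 12.12 TPM at 50 mg/kg. On day 8 it had 13.65, 12.67, 13.07 and 10.57 TPM at vehicle, 10.62, 15.49, 11.02 and 12.99 TPM at 25 mg/kg, and 8.4, 10.68, 8.37 and 7.71 TPM at 50 mg/kg. At 50 mg/kg, 3 of 4 libraries of day 8 lay below every vehicle and 25 mg/kg library, and replicate 2 lay within the range of both. Averaged over both days, Bcl2 fell by 0.37 on the log2(TPM + 1) scale at 50 mg/kg against vehicle (SE 0.096, adjusted p = 0.0177 by limma). It was the only member to pass in this comparison, in which 12.0% of all tested genes passed. The call held in all 24 alternatives, with adjusted p from 0.00677 to 0.0441 and values from -0.41 to -0.27.

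Neither day passed alone for Bcl2. The day 8 means were 8.79 ± 1.30 TPM at 50 mg/kg and 12.5 ± 1.34 TPM in vehicle (SD, n = 4 each), a difference of -0.47 (SE 0.14, adjusted p = 0.0630). It passed without vehicle replicate 4 (0.0272) or without 50 mg/kg replicate 2 (0.0368), and the alternatives ranged from 0.0272 to 0.251. On day 4 the means were 10.4 ± 1.58 TPM at 50 mg/kg and 12.8 ± 2.60 TPM in vehicle, a difference of -0.27 (SE 0.14, adjusted p = 0.220). The change of the effect between the days was -0.20 (SE 0.19, adjusted p = 0.665). Set against 25 mg/kg, Bcl2 at 50 mg/kg differed by -0.23 on day 4 (adjusted p = 0.481) and by -0.46 on day 8 (adjusted p = 0.0912). In the order of the 6 group means, the upper 4 (12.8 to 12.3 TPM) were separated by less than the spread of their libraries. The day 4 group at 50 mg/kg followed 1.87 TPM below the day 4 group at 25 mg/kg. The day 8 group at 50 mg/kg lay 1.60 TPM below the day 4 group at 50 mg/kg. Both distances are between neighbouring means and exceeded the larger SD of the groups they join (1.58 TPM). The SD of day 4 vehicle was larger, at 2.60 TPM.

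Neither of the 2 abundant guardians passed at 50 mg/kg. Mcl1 had 145.28, 153.81, 130.87 and 133.17 TPM at 50 mg/kg on day 4, against 117.75, 131.36, 112.71 and 113.45 TPM in vehicle. The groups overlapped by 1 library, vehicle replicate 2, and the difference was 0.24 (SE 0.10, adjusted p = 0.130). On day 8 Mcl1 had 116.37, 113.71, 143.82 and 158.0 TPM at 50 mg/kg, against 117.19, 118.65, 106.9 and 142.8 TPM in vehicle. Averaged over both days the difference was 0.18 (SE 0.071, adjusted p = 0.0934), and it passed without day 8 vehicle replicate 4 (0.0240), day 8 50 mg/kg replicate 1 (0.0485) or day 8 50 mg/kg replicate 2 (0.0443), with alternatives from 0.0240 to 0.199.

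Bcl2l1, from which BCL-XL is made, had 122.58, 170.16, 139.74 and 110.59 TPM at 50 mg/kg on day 4, against 113.11, 111.61, 88.79 and 103.3 TPM in vehicle. Of the 4 libraries at 50 mg/kg, 3 lay above all vehicle libraries, and the difference was 0.37 (SE 0.17, adjusted p = 0.186). On day 8 the vehicle libraries alone spread from 97.1 to 169 TPM, and the difference was -0.02 (SE 0.17, adjusted p = 0.969). Red cell precursors use BCL-XL. On day 4 the erythroid list averaged lower at 50 mg/kg while Bcl2l1 averaged higher, and neither was free of overlap. The mean log2 level of the erythroid list was 1.84 (1.08 to 3.30) at 50 mg/kg on day 4, against 3.03 (2.97 to 3.12) in vehicle. On day 8 it was 2.63 (1.53 to 3.46) at 50 mg/kg, against 3.09 (2.42 to 3.60) in vehicle. Of the 6 tested genes of that list, 1 fell on each day, and in each group 3 of its 8 genes averaged under 1 TPM. The part of these cells in the Bcl2l1 values was not tested.

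Of the effectors, neither passed at 50 mg/kg. On day 4 Bax had 141.65, 134.04, 117.35 and 135.32 TPM at vehicle, 102.34, 112.56, 113.72 and 105.61 TPM at 25 mg/kg, and 118.59, 114.69, 107.67 and 95.31 TPM at 50 mg/kg. All libraries at 25 mg/kg lay below all of vehicle, while at 50 mg/kg replicate 1 lay just above the lowest vehicle library. The difference was -0.28 at 50 mg/kg (SE 0.10, adjusted p = 0.0972) and also -0.28 at 25 mg/kg (SE 0.10, adjusted p = 0.914), and both rest on the same 4 vehicle libraries. Quantile normalization brought the value at 50 mg/kg past the threshold (0.0429), the lowest of the alternatives, which reached up to 0.211. Bax was the only member without overlap between 25 mg/kg and vehicle on day 4, against 5.54% of all tested genes.

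Those day 4 vehicle libraries were also high for Bax against the day 8 vehicle libraries, which had 100, 85.19, 109.78 and 103.54 TPM. The 2 vehicle groups did not overlap, which held for 4.33% of all tested genes and for no other member. The difference of day 8 to day 4 was -0.41 (SE 0.10), the member with the smallest p in that comparison (adjusted p = 0.281). On day 8 Bax had 121.64, 89.02, 99.07 and 97.65 TPM at 50 mg/kg, and the difference to vehicle was 0.03. Bak1 had 91.37, 104.04, 98.17 and 92.68 TPM at 50 mg/kg on day 4, against 114.36, 100.23, 98.35 and 105.43 TPM in vehicle. The groups overlapped, with a difference of -0.11 (SE 0.061, adjusted p = 0.244). On day 8 Bak1 had 114.36, 93.14, 102.67 and 107.23 TPM at 50 mg/kg, against 94.99, 92.6, 99.29 and 95.54 TPM in vehicle. Here 3 of the 4 libraries at 50 mg/kg lay above all of vehicle, and the difference was 0.12 (SE 0.061, adjusted p = 0.302). The change of the effect between the days did not pass for Bak1 (0.24, SE 0.086, adjusted p = 0.173) or for Bax (0.30, SE 0.15, adjusted p = 0.308). Bak1 overlaps Ggnbp1 (8.58 TPM) on the opposite strand, so its level is uncertain.

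**Figure D2:**
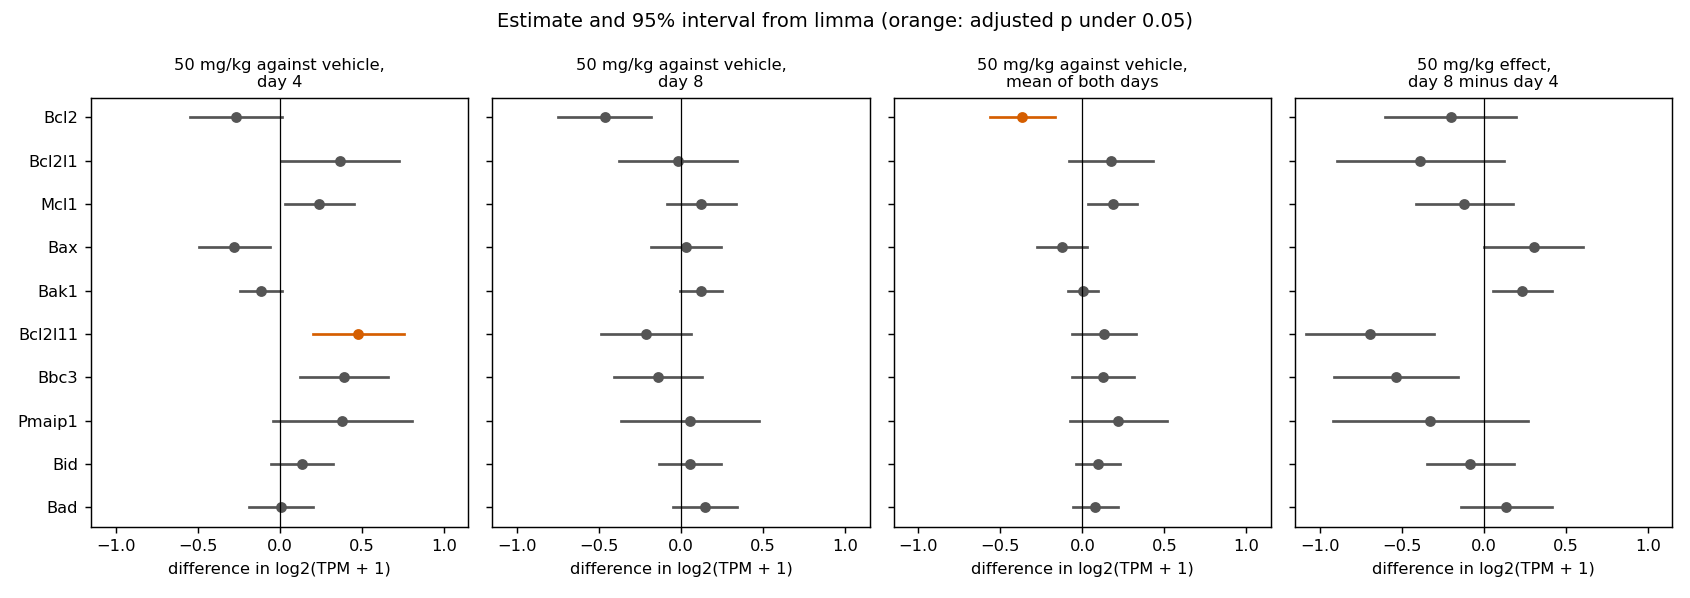
Estimates (points) and 95% intervals (lines) of the difference in log2(TPM + 1) for the 10 genes, from limma on 24 libraries: 50 mg/kg against vehicle on day 4, on day 8, averaged over both days, and the day 8 effect minus the day 4 effect. Orange marks the 2 differences that passed, Bcl2l11 on day 4 (0.48) and Bcl2 over both days (-0.37).

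Across the family, no member passed at 50 mg/kg on day 8, when 2.78% of all tested genes did and 1 member, Bcl2, had an unadjusted p under 0.05 (17.9% of tested genes did). That gene count was 12 when the fit held only the compared groups, against 438 otherwise. On day 4, 5 members had an unadjusted p under 0.05, as did 25.9% of tested genes. For the change of the effect between the days, 4 members (Bcl2l11, Bbc3, Bak1 and Bax) had an unadjusted p under 0.05, as did 16.1% of tested genes. Of these, the value of Bcl2l11 on day 4 alone passed after adjustment over all genes. The median difference of the 10 members was 0.19 on day 4, against 0.03 over all tested genes, and 0.04 on day 8, against -0.02. No member was free of overlap between 50 mg/kg and vehicle, on day 4, when 18.4% of tested genes were, or on day 8, when 6.49% were.

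At 25 mg/kg no member passed against vehicle on day 4, on day 8 or over both days, and limma called 0% of all tested genes there. With unadjusted p under 0.05 there were 724, 468 and 347 genes, among them 1 member, Bax, on day 4. Between the doses no member passed, with 2.15% of tested genes called on day 4 and 1.08% on day 8. In that comparison Bcl2l11 (0.28) and Bbc3 (0.30) had unadjusted p under 0.05 on day 4, and Bcl2 (-0.46) and Bbc3 (-0.29) on day 8, 2 of 10 each day against 13.96% and 16.7% of tested genes. Between the vehicle groups limma called 0%, and 1749 genes (11.1%) had an unadjusted p under 0.05, with Bax, Bak1 and Bcl2l11 among them.

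The balance between classes was described by sums of TPM over the core members only, without a test. On day 4 the summed effector level relative to the summed guardian level was 1.00 ± 0.062 at vehicle, 0.79 ± 0.074 at 25 mg/kg and 0.72 ± 0.047 at 50 mg/kg (SD, n = 4 each). The vehicle libraries ranged from 0.92 to 1.06, above all treated libraries of that day (0.65 to 0.89). Of single tested genes on day 4, 18.4% were free of overlap between 50 mg/kg and vehicle, and 5.54% between 25 mg/kg and vehicle. The ratio is made of the same library values as the single genes, Bax among them. Its separation therefore adds no evidence to those values. On day 8 the same ratio was 0.75 ± 0.16 at vehicle, 0.85 ± 0.10 at 25 mg/kg and 0.78 ± 0.19 at 50 mg/kg, with overlap between all groups. The summed BH3-only level relative to the guardians was 0.61 at 50 mg/kg and 0.61 in vehicle on day 4, and 0.57 at 50 mg/kg and 0.59 in vehicle on day 8.

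The ratio of Bcl2l11 to Bcl2, chosen with the values of both known, joins the 2 members that passed. On day 4 it was 3.30 ± 0.50 at vehicle, 3.89 ± 0.31 at 25 mg/kg and 5.64 ± 0.52 at 50 mg/kg. The libraries at 50 mg/kg (4.88 to 6.03) stood apart from all others of that day (2.66 to 4.30). The ratio divides the member that passed as higher by the member that passed as lower in these same libraries. Its separation therefore adds no evidence to the 2 calls. On day 8 it was 4.27 ± 0.88 at vehicle, 3.75 ± 0.23 at 25 mg/kg and 5.30 ± 1.46 at 50 mg/kg, and the groups at 50 mg/kg and vehicle overlapped.

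**Figure D3:**
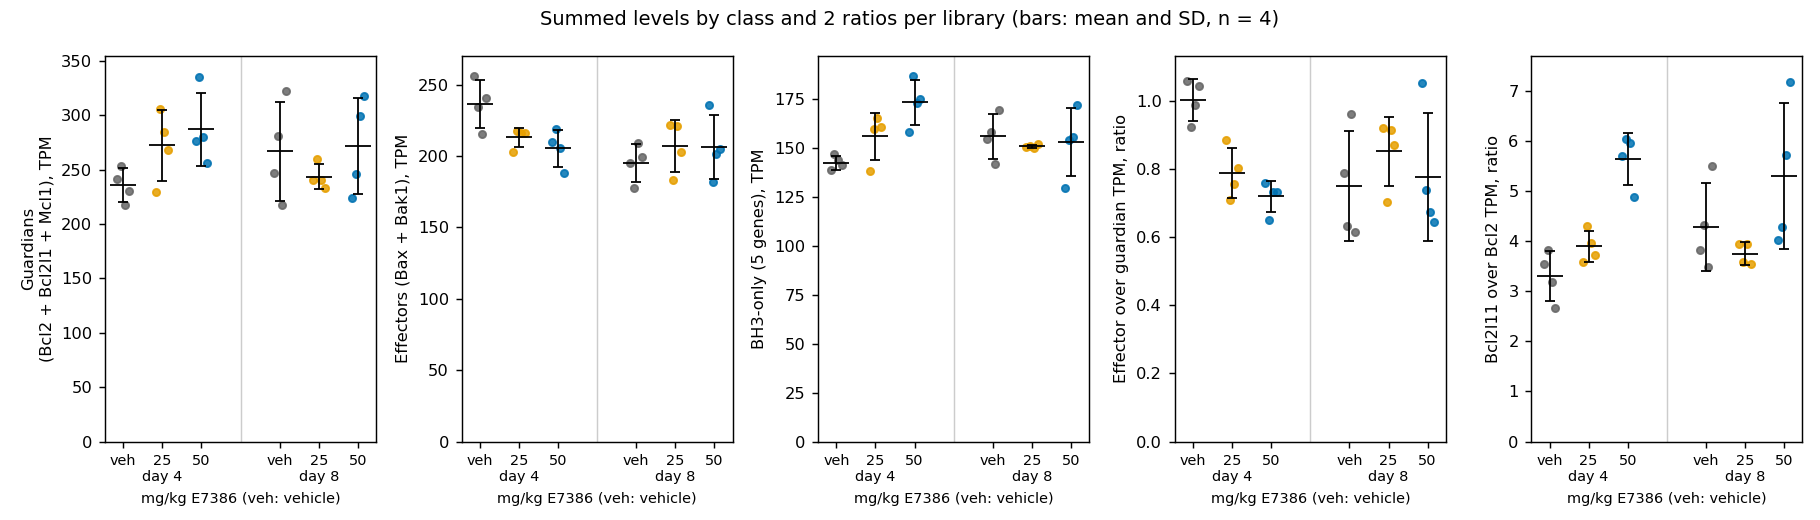
Summed TPM of the guardians, the effectors and the BH3-only genes, the effector to guardian ratio and the Bcl2l11 to Bcl2 ratio in each library (vertical axes starting at 0), by day and dose of E7386, with bars for mean and SD of 4 libraries. The effector to guardian ratio of the day 4 vehicle libraries (0.92 to 1.06) lies above that of the treated libraries of day 4, and on day 8 the groups overlap. The day 4 separation adds no evidence to the values of the single genes.

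The genes whose levels most resembled the 2 called members over the 24 libraries were found by Pearson's r of log2(TPM + 1), as a description. For Bcl2 these were Brd8 (0.92), Spata13 (0.900) and Amer1 (0.899). For Bcl2l11 they were Ptpre (0.86), Med13l (0.851) and Bcor (0.850). The points share libraries, doses and days.

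Of 77 further genes of the apoptosis machinery in 9 lists, 73 were tested. At 50 mg/kg 7 rose and 6 fell on day 4, 2 fell on day 8, and 8 rose and 5 fell over both days, against the same shares of all genes as above (9.26%, 2.78% and 12.0%). At 25 mg/kg none passed against vehicle on either day or over both. Bcl2l10, Hrk, Fasl and Trim17 did not reach the filter.

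In the list of other guardians, 1 of 4 tested genes rose on day 4 and 3 over both days, all copies of Bcl2a1, whose product A1 protects blood cells. Bcl2a1a had 8.87, 4.66, 5.89 and 2.86 TPM at 50 mg/kg on day 4, against 1.94, 1.98, 1.53 and 1.26 TPM in vehicle (difference 1.22, adjusted p = 0.0131). On day 8 it had 4.27, 4.89, 5.98 and 5.79 TPM at 50 mg/kg, against 1.74, 1.83, 1.41 and 5.73 TPM in vehicle, where replicate 4 stood apart. Over both days Bcl2a1b (0.88, adjusted p = 0.0223) and Bcl2a1d (0.64, adjusted p = 0.0213) passed as well, calls that ended in 5 and 2 of 24 alternatives. The copies are near-identical and share reads, so the split between them is uncertain.

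Macrophage marker levels were also higher on average at 50 mg/kg. The mean log2 level of the 10 macrophage markers was 6.09 (5.59 to 6.65) at 50 mg/kg on day 4, against 5.46 (5.10 to 6.10) in vehicle, and 6.03 (5.76 to 6.12) at 50 mg/kg on day 8, against 5.56 (4.89 to 6.20) in vehicle. The highest day 8 vehicle value was that of replicate 4, the library with 5.73 TPM of Bcl2a1a. That library was also the highest of its group for the neutrophil list (3.33, the others 1.46 to 1.73), the T and NK list (1.80, the others 0.87 to 0.89), the endothelial list (4.50, the others 3.09 to 3.69) and the fibroblast list (6.74, the others 4.92 to 6.01). In that group 3 of the 8 neutrophil genes and 7 of the 10 T and NK genes averaged under 1 TPM. None of the 10 macrophage markers passed, their median differences were 0.65 and 0.55, and none averaged under 1 TPM in any group. The part of macrophages or of these other cells in the Bcl2a1 values was not tested. Bcl2l2, the guardian BCL-W, had differences of 0.22 on day 4 (adjusted p = 0.126) and -0.08 on day 8. Among the 3 tested effector and BH3-only genes outside the core (Bok, Bik and Bmf) none passed, and Bmf, given like Bcl2l2 after its values were seen, had 12.6 ± 3.53 TPM at 50 mg/kg and 7.55 ± 1.33 TPM in vehicle on day 4 (adjusted p = 0.140).

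Of 8 BCL2-related genes outside the core, Bnip3 and its relative Bnip3l, receptors that send mitochondria to autophagy, fell on both days. Bnip3 had 16.7 ± 4.77 TPM at 50 mg/kg and 40.7 ± 5.55 TPM in vehicle on day 4 (-1.26, adjusted p = 0.00266), and 14.6 ± 3.74 TPM at 50 mg/kg and 56.6 ± 14.6 TPM in vehicle on day 8 (-1.89, adjusted p = 0.000226). Bnip3l fell by 0.30 on day 4 (adjusted p = 0.0445, a call that ended in 8 of 16 alternatives) and by 0.53 on day 8 (adjusted p = 0.00305, a call that ended in 1 of 16). Both are known hypoxia-induced genes and lack the pore-forming and guardian roles of the core members.

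Among 12 apoptosome and caspase genes, 1 fell on day 4 and 1 over both days, and none rose. Aifm1, a mitochondrial flavoprotein gene, fell on day 4 (-0.40, adjusted p = 0.00746), and Casp6 over both days (-0.22, adjusted p = 0.0385, a call that ended in 13 of 24 alternatives). Apaf1, the scaffold of the apoptosome, had 9.73 ± 1.90 TPM at 50 mg/kg and 10.8 ± 0.92 TPM in vehicle on day 4 (adjusted p = 0.434).

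Of 7 caspase inhibitor genes, Birc5 (survivin), which also serves cell division, fell on day 4. It had 59.73, 49.36, 48.59 and 68.04 TPM at 50 mg/kg, against 93.28, 82.78, 99.48 and 81.41 TPM in vehicle (-0.66, adjusted p = 0.0266), and the call ended in 5 of 16 alternatives. Xiap, the direct caspase inhibitor, had 30.4 ± 3.07 TPM at 50 mg/kg and 26.6 ± 0.92 TPM in vehicle (0.18, adjusted p = 0.161). Of 10 tested death receptor genes, the adaptor kinase gene Ripk1 passed over both days (0.20, adjusted p = 0.0239, a call that ended in 4 of 24 alternatives). Ripk1 overlaps the more abundant Serpinb6a (107 TPM) on the opposite strand, so its value is uncertain. Fas had 4.29 ± 1.36 TPM at 50 mg/kg and 2.49 ± 0.72 TPM in vehicle on day 4 (adjusted p = 0.115), and Cflar, the decoy of caspase-8, had 34.9 ± 4.17 TPM at 50 mg/kg and 30.8 ± 2.47 TPM in vehicle (adjusted p = 0.513).

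**Figure D4:**
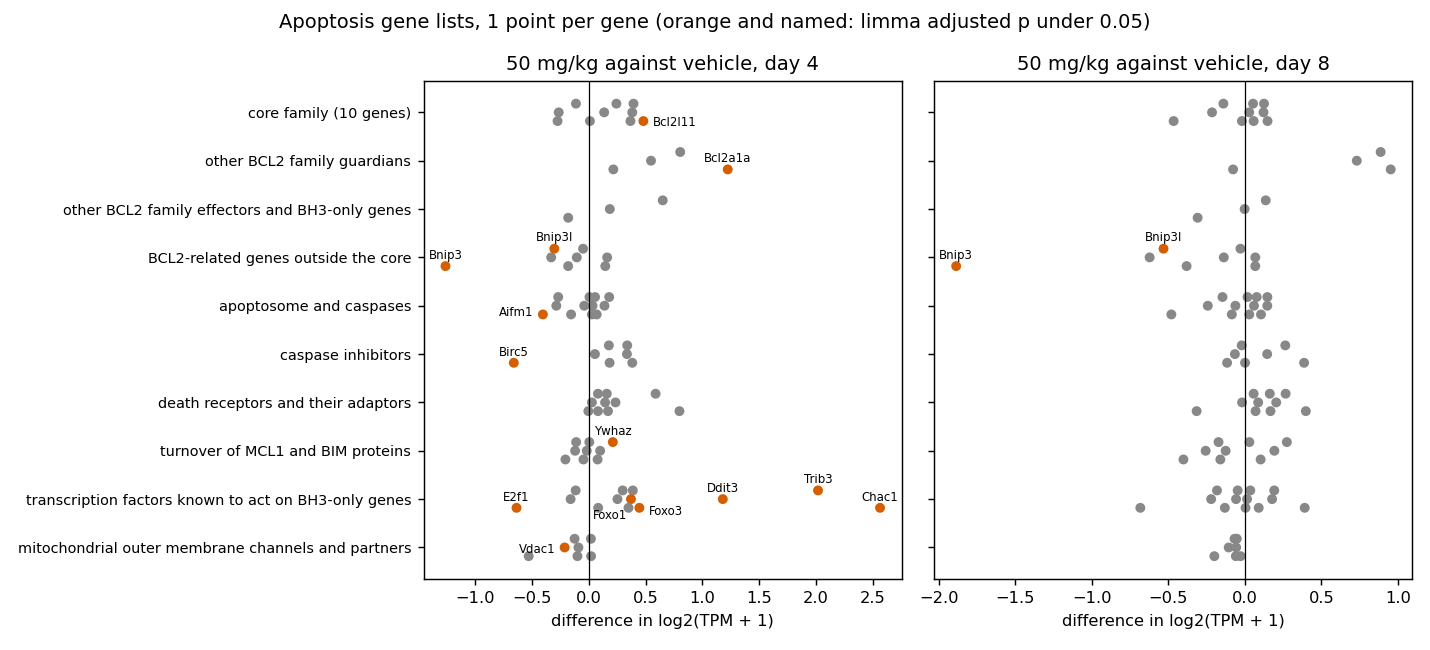
Difference in log2(TPM + 1) at 50 mg/kg against vehicle (horizontal axis) for each tested gene of the core family and of 9 apoptosis lists (rows), on day 4 (left) and day 8 (right); the horizontal scales differ and vertical offsets within a row carry no value. Orange points passed (limma adjusted p under 0.05): 1 core gene and 13 list genes on day 4, and Bnip3 and Bnip3l on day 8.

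In the list of factors known to act on BH3-only genes and of genes downstream of CHOP, 5 of 13 rose on day 4 and 1 fell; 3 of the 5 (Ddit3, Trib3 and Chac1) were known from earlier results of the same libraries to rise, so the count is no independent evidence. Ddit3, whose product CHOP is a stress factor known to act on Bcl2, Bcl2l11 and Bbc3, had 28.35, 22.0, 33.19 and 41.73 TPM at 50 mg/kg, against 12.24, 13.19, 14.73 and 11.69 TPM in vehicle (1.18, adjusted p = 8.7e-05). On day 8 Ddit3 had 14.7 ± 0.68 TPM at 50 mg/kg and 17.6 ± 3.60 TPM in vehicle (-0.22, adjusted p = 0.501). Ddit3 overlaps the more abundant Mars (64.6 TPM) on the opposite strand, so its value is uncertain. Trib3 (2.02, adjusted p = 0.000134) and Chac1 (2.56, adjusted p = 0.000411) rose on day 4 as well. They are genes downstream of CHOP and not transcription factors. At 50 mg/kg Trib3 had 14.3, 10.94, 22.62 and 45.16 TPM and Chac1 7.19, 4.62, 10.12 and 28.02 TPM, with replicate 4 highest for both. Chac1 was near the filter limit in vehicle, at 0.78, 0.71, 0.93 and 1.07 TPM. Its difference ran from 1.41 to 3.37 over the alternatives, and its call held.

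Foxo1, a factor known to act on Bcl2l11 and Bbc3, had 37.8 ± 0.96 TPM at 50 mg/kg and 29.0 ± 2.07 TPM in vehicle on day 4 (0.37, adjusted p = 0.00928), and passed over both days (0.28, adjusted p = 0.00485). Foxo3, named after its values were seen, had 63.4 ± 6.40 TPM at 50 mg/kg and 46.3 ± 4.27 TPM in vehicle on day 4 (0.44, adjusted p = 0.0426), a call that ended in 9 of 16 alternatives. E2f1, a cell cycle factor, fell on day 4 (-0.64, adjusted p = 0.0187, a call that ended in 2 of 16 alternatives). On day 8 none of the 13 passed. Whether FOXO activity or CHOP protein changed was not measured here.

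In the 2 remaining lists the calls were small. Among 9 tested genes for turnover of MCL1 and BIM proteins, Ywhaz, a 14-3-3 protein gene, rose on day 4 (0.21, adjusted p = 0.0306, a call that ended in 6 of 16 alternatives), and the dynein light chain gene Dynll2 fell over both days (-0.30, adjusted p = 0.0459, a call that ended in 15 of 24). Of 7 genes for mitochondrial channels and partners, the channel gene Vdac1 fell on day 4 (-0.21, adjusted p = 0.0331, a call that ended in 7 of 16 alternatives) and the inner membrane fusion gene Opa1 over both days (-0.15, adjusted p = 0.0306, a call that ended in 10 of 24).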

How the data were processed

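RNA-seq of 24 tumour libraries was deposited by the authors as 1 table of TPM values, scaled so that each library has the same total; read depth is therefore unknown and no counting interval is given. The submitters' processing notes name RSEM 1.2.31, STAR 2.5.0c, Trimmomatic 0.36 and bcl2fastq, and the build mm10 (GRCm38). The sources used here give neither the annotation release nor the use of strand in counting. TPM is relative, so a rise of abundant genes lowers all others.

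Values were taken as log2(TPM + 1), which understates changes of low genes, and a gene was kept (15736 were) when 4 or more libraries reached 1 TPM. The 6 group means were fitted in R 4.3.3 with limma 3.58.1, using empirical Bayes with a trend and 18 residual degrees of freedom; 10 contrasts were tested, two-sided, with Benjamini-Hochberg adjustment over all tested genes and a threshold of 0.05. The steps were tested on simulated data. Python 3.11.15 with pandas 2.3.3 was used for descriptions.

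Alternatives were scaling by TMM factors or by quantiles, dropping the filter or raising it to 5 TPM, a pseudocount of 0.1 or 5, fitting only the groups compared, a block for the replicate number, and leaving out each library; for the genes of the apoptosis lists these were chosen after seeing the data. The members and lists were chosen with earlier results of these data known. All members were named; from each list, the text names up to 3 genes per direction and comparison with the smallest p among those that passed at 50 mg/kg, and Apaf1, Xiap, Birc5, Cflar and Fas in values; Foxo3, Bmf and Bcl2l2 were added after their values were seen. A result that the lists would have held is not reported here, and the counts of the lists leave it out. Gene positions and overlaps come from GENCODE M21 (GRCm38), in which 47224 of 47729 identifiers were found, and promoter windows from RefSeq (GRCm38.p6), which held 9 of the 10 members in the table used.

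Marker lists of 10 cell types served as descriptions. Besides the macrophage and erythroid lists, mean log2 levels on day 4 were 8.57 at 50 mg/kg and 8.33 in vehicle for mammary epithelium, 1.28 at 50 mg/kg and 1.06 in vehicle for T and NK cells, and 3.88 at 50 mg/kg and 3.69 in vehicle for endothelium. On day 8 they were 8.69 at 50 mg/kg and 8.46 in vehicle for epithelium, 1.40 at 50 mg/kg and 1.11 in vehicle for T and NK cells, and 3.24 at 50 mg/kg and 3.73 in vehicle for endothelium. Among the 10 T and NK genes, 7 averaged under 1 TPM in each day 4 group and in day 8 vehicle, and 4 did at 50 mg/kg on day 8. Of all markers outside the macrophage and erythroid lists, 3 epithelial genes rose on day 8 and no other passed on either day. The median differences of the day 4 and day 8 comparisons were 0.04 and -0.06 for B and plasma cells (1 tested gene), 0.20 and 0.37 for neutrophils, 0.003 and 0.003 for fibroblasts, 1.23 and 1.19 for skeletal muscle, and 0.24 and -0.12 for adipocytes. Muscle levels were uneven between libraries and overlapped. On day 4 they ranged from 0.56 to 3.89 in vehicle and from 0.66 to 5.95 at 50 mg/kg. The day 8 ranges were 0.56 to 4.70 in vehicle and 1.10 to 5.10 at 50 mg/kg.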

Additional observations from a re-analysis of the deposited data

Results flagged for a closer look

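In each of the 60 sets of 4 libraries that the 10 members and 6 groups give, the highest and the lowest library were compared with the rest, and in 5 sets 1 library stood far from the other 3. Chance gives about 1 such library in 20 groups. The sets share libraries, so that rate does not apply directly, and 5 of 60 is not shown to exceed chance. In 3 of the 5 sets it was replicate 2 at 25 mg/kg on day 8, which had 128.07 TPM of Bcl2l1 (the others 102 to 106 TPM), 90.62 TPM of Bak1 (98.3 to 98.7 TPM) and 33.92 TPM of Bid (38.9 to 39.95 TPM). The other two were from replicate 4 of the day 8 vehicle group, with 19.69 TPM of Bbc3 (22.1 to 22.5 TPM) and 10.9 TPM of Pmaip1 (6.18 to 6.54 TPM). That vehicle library also had the highest marker level of its group for macrophages (6.20, the others 4.89 to 5.63), neutrophils (3.33, the others 1.46 to 1.73), T and NK cells (1.80, the others 0.87 to 0.89), endothelium (4.50, the others 3.09 to 3.69) and fibroblasts (6.74, the others 4.92 to 6.01). The neutrophil and T and NK lists were low there, with 3 of 8 and 7 of 10 genes averaging under 1 TPM in the group. The part of these cells in its Bbc3 and Pmaip1 values was not tested.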

How the results depend on the processing

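The 100 member results gave 1840 values under alternatives: 1818 kept their side of the threshold, 7 lost a call, 15 gained 1 and none of the called values changed sign. Among the 1818 were 101 values of the other sign, where neither value passed. The number of members called at 50 mg/kg against vehicle on day 4, 1 in the report, was 2 with quantile normalization, with the 5 TPM filter or with the replicate block, and 0 in a fit of the compared groups alone; leaving out single libraries gave 0 to 2. The same gave 0 to 1 on day 8, 1 to 2 over both days and 0 to 1 for the change between days, which was 1 with the replicate block (Bcl2l11, adjusted p = 0.0389); the block also brought Bbc3 past the threshold on day 4 (0.0466). Replicate numbers share no stated source. The deviations of same-numbered libraries of a day correlated at 0.10 on average (-0.19 to 0.42). Those of different-numbered libraries of a day averaged -0.034 (-0.35 to 0.44), and those of same-numbered libraries of different days -0.002. Of 24 libraries, 16 correlated more with those of their own number than with the others of that day. Deviations were taken from group means and cancel within a group. The different-numbered average is therefore largely fixed by the same-numbered one and is no separate comparison. The count of 16 rests on the same values, and its chance level was not worked out. Genes called on day 8 numbered 438 (120 higher, 318 lower), with a split of 215 and 222 under TMM factors and of 169 and 279 after quantile normalization. There were 12 in a fit of the compared groups alone, and with a library left out 1175 (vehicle replicate 4), 207 (vehicle 1), 214 (vehicle 2) and 180 (50 mg/kg 3). On day 4 there were 1457 (779 and 678), and with a library left out 869 (vehicle 1), 780 (vehicle 3), 881 (vehicle 4) and 699 (50 mg/kg 3); quantile normalization gave 656 and 873. Over both days there were 1887, 1013 in that fit, 3360 with day 8 vehicle replicate 4 left out, 1222 with day 8 vehicle replicate 1 and 1234 with day 8 50 mg/kg replicate 3 left out, and for the change between days 226, 343 with the block, 68 in that fit, and 92 (day 4 vehicle replicate 1 left out) to 601 (day 8 vehicle replicate 3 left out). The cause was not tested. Depth is unknown, so its limits cannot be given.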
